A study of Mus musculus with 6 samples.

Results

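Adrenomedullin is a vasoactive peptide that keeps vessels open and tight, and its receptor is built from a shared core and an interchangeable partner. The core is Calcrl, a G protein-coupled receptor, which needs a single-pass partner of the RAMP family to reach the cell surface. With Ramp2 or Ramp3 as partner the complex binds adrenomedullin, and with Ramp1 it binds calcitonin gene-related peptide. Ligand binding raises cAMP through the stimulatory G protein, whereas Ackr3 takes up adrenomedullin and the chemokine Cxcl12 without classical G protein signalling. In mice, loss of Adm, Calcrl or Ramp2 is lethal before birth with vascular defects, and loss of Ramp3 is not.

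The system described here is 5 genes of the 54532 in the deposited table, matched by gene name: the ligand gene Adm, the receptor core Calcrl, the partners Ramp2 and Ramp3, and the scavenger Ackr3. All 5 had an FPKM (fragments per kilobase of gene, scaled to library size) of at least 1 in at least 3 libraries, the condition for entering the fits, which 11277 genes met. The genes were chosen by their FPKM in these libraries, including the difference between bezafibrate and untreated libraries, which is therefore given as values with no test.

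The libraries were made from brain endothelial cells of Df(h22q11)/+ mice, a model of human 22q11.2 deletion syndrome with 1 copy of that interval deleted, so every group shares that deletion and wild-type mice were not analysed here. Mice were 12 to 16 weeks old, males and females, and ate for 4 weeks either irradiated base chow (untreated) or chow with 0.5% bezafibrate, a lipid-lowering agonist of PPAR receptors. Live cells were sorted as CD31+, CD45- and PDGFRb-, and RNA from 3 brains alike in sex and chow went into each library. The untreated libraries are female F_1 and F_2 and male M_1, and the bezafibrate libraries are female F_1 and male M_1 and M_2. These are bulk libraries, so fewer cells of a type and less RNA per cell cannot be told apart.

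Recovered reads ran from 16858130 to 20228619 per library. Xist, the RNA of the inactive X chromosome, stood at 11.9 to 13.1 FPKM in the libraries labelled female and was listed at 0 in those labelled male. The summed FPKM of 12 endothelial markers ran from 3010 to 3532 in untreated and from 2529 to 3280 in bezafibrate libraries. On the first principal component of log2(FPKM + 1), 2 libraries stood apart, untreated M_1 and bezafibrate F_1, with scores of 30.3 and 24.4 against -22.6 to 1.62 elsewhere. That component held 39.3% of the variance. These libraries are also the only untreated male and the only bezafibrate female library, so what is particular to them and a combination of sex and chow cannot be told apart.

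Ramp3 (ENSMUSG00000041046, GRCm38 chromosome 11, 6658521 to 6677475, plus strand) varied most among the 5 genes. It stood at 19.2, 17.4 and 82.3 FPKM in untreated F_1, F_2 and M_1 and at 35.1, 7.80 and 11.3 FPKM in bezafibrate F_1, M_1 and M_2. Behind these values were 534, 429 and 2109 recovered reads in the untreated libraries and 873, 229 and 293 in the bezafibrate libraries. The highest library, untreated M_1, was 10.5-fold above the lowest, bezafibrate M_1, and the next highest was bezafibrate F_1. These are the same libraries that stood apart, and both bezafibrate male libraries lay below every other. The chow groups overlapped, because bezafibrate F_1 lay above untreated F_1 and F_2.

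Group means of Ramp3 were 39.7 ± 36.9 FPKM in untreated and 18.1 ± 14.9 FPKM in bezafibrate libraries (SD, n = 3 each). The difference, bezafibrate minus untreated, was -0.997 (SE 0.687) on the log2(FPKM + 1) scale, a scale that understates the change of low genes. A single library set much of this size: the difference was -0.29 without untreated M_1 and -0.58 without bezafibrate M_1, and -1.60 without bezafibrate F_1. It was -0.89 without both untreated M_1 and bezafibrate F_1. That fit sets untreated females against bezafibrate males, so chow and sex cannot be told apart in it. The direction was the same in all 16 alternative fits, which share most of their libraries.

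By sex, the pattern of Ramp3 ran in opposite directions. In females, bezafibrate F_1 (35.1 FPKM) lay above both untreated libraries (19.2 and 17.4). In males, both bezafibrate libraries (7.80 and 11.3) lay below untreated M_1 (82.3). The male minus female effect differed between chows by -3.90 (SE 0.343) on the log2 scale. This value rests on a single library in untreated males and in bezafibrate females, which add no spread to the SE. Limma called such a difference in 0.665% of all genes, a share that ran from 0 genes without bezafibrate M_1 or M_2 to 1084 of 11277 genes by limma-voom, and nothing is read from it because the pattern of Ramp3 over libraries was known when it was chosen.

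Calcrl (ENSMUSG00000059588, chromosome 2, 84330626 to 84425411, minus strand), the signalling core that every RAMP pairs with, ran opposite to Ramp3 in the libraries that stood apart. Its highest value was in untreated F_1, where Ramp3 was not lowest. It stood at 14.0, 8.17 and 3.22 FPKM in untreated F_1, F_2 and M_1 and at 5.42, 13.4 and 13.0 FPKM in bezafibrate F_1, M_1 and M_2. Its lowest values were in untreated M_1 and bezafibrate F_1, the libraries with the highest Ramp3, and its range was 4.34-fold. Group means were 8.46 ± 5.38 and 10.6 ± 4.50 FPKM (SD, n = 3 each), and the groups overlapped.

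The log2 difference of Calcrl was 0.39 (SE 0.490), and it turned to -0.11 without untreated M_1. Without untreated F_1 it was 0.81, without bezafibrate F_1 0.77, without bezafibrate M_1 0.18 and without bezafibrate M_2 0.21. The male minus female effect of Calcrl differed between chows by 2.62 (SE 0.429), the sign opposite to that of Ramp3. As for Ramp3, this rests on a single untreated male and a single bezafibrate female library, which add no spread to the SE. Across the 6 libraries Pearson's r between Ramp3 and Calcrl was -0.92 on log2 values, a description over libraries that share processing and of which the pair at the extremes is the pair that stood apart. With Ramp3, 357 of 11276 genes, or 3.17%, had r of -0.9 or below.

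**Figure D1:**
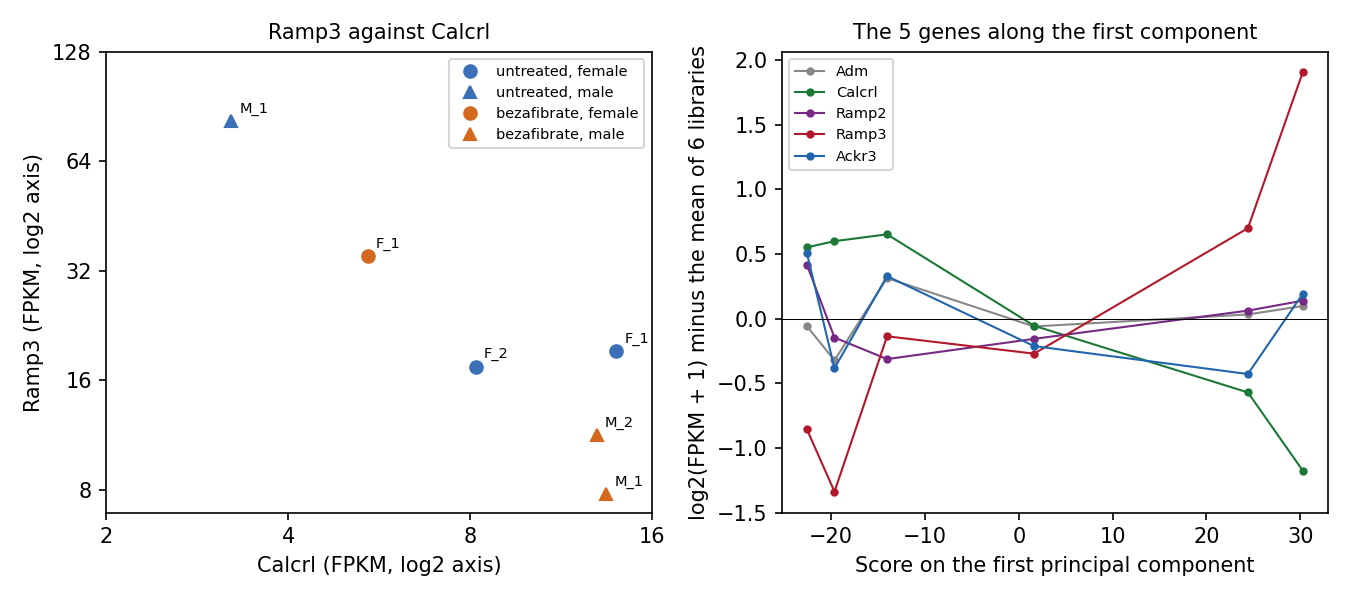
Left, Ramp3 against Calcrl in FPKM, both on log2 axes, 1 point per library, colour for chow and symbol for sex; untreated M_1 (Ramp3 82.3, Calcrl 3.22) and bezafibrate F_1 (35.1, 5.42) lie at the upper left, and the other 4 libraries to the right with Ramp3 at 7.80 to 19.2. Right, log2(FPKM + 1) of each of the 5 genes minus its mean over 6 libraries, against the library's score on the first principal component; Ramp3 is highest and Calcrl lowest in both libraries with scores above 24, and the other 3 genes deviate less there.

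The plot of Ramp3 against Calcrl places the libraries on a diagonal from high Ramp3 with low Calcrl to the reverse. The ratio of Ramp3 to Calcrl, in FPKM, came to 1.38, 2.13 and 25.6 for untreated F_1, F_2 and M_1 in that order, against 6.49, 0.581 and 0.871 for bezafibrate F_1, M_1 and M_2. Ramp3 exceeded Calcrl in 4 libraries and lay below it in both bezafibrate male libraries. On the first principal component, Pearson's r with the library scores was 0.92 for Ramp3 and -0.97 for Calcrl, against 0.29 for Adm, 0.11 for Ramp2 and -0.30 for Ackr3. The genes themselves are among those from which the component was computed.

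The 300 bases around the starts of Ramp3 and Calcrl are shown because these genes ran in opposite directions across the libraries. Both windows cover 250 bases before and 50 after the start, 5′ to 3′ on the gene's strand, from RefSeq (GRCm38.p6), which held such a window for 4 of the 5 genes. Capitals mark every match, on either strand, to the GC box GGGCGG or to the hypoxia response core in the form GCGTG.
Ramp3, chr11:6658283-6658582, plus strand: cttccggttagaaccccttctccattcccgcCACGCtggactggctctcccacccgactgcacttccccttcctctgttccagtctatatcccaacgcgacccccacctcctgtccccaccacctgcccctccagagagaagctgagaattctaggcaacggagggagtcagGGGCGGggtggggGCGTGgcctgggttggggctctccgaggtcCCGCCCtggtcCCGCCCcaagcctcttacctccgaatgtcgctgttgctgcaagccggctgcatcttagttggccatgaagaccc
Calcrl, chr2:84425217-84425516, minus strand: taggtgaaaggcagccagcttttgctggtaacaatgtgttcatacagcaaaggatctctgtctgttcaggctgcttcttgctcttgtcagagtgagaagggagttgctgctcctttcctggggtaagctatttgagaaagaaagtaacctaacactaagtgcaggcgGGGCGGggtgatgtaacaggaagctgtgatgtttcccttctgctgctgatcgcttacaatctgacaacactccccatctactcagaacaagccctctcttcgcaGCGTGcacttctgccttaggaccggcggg

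The Ramp3 window had 63.7% G and C and held 3 GC boxes, at 78, 35 and 24 bases before the start, and the Calcrl window had 50.7% and held 1. The start used for Calcrl lies inside the gene model behind its FPKM, and its GC box falls within that model. The Ramp3 start also lies inside its gene model, by fewer bases. GCGTG matched at 2 places in Ramp3 and at 1 in Calcrl. A GC box is in 35.7% and GCGTG in 32.4% of 32851 promoter windows of this length. Ackr3 (1 and 1 matches) and Adm (1 GC box, 2 GCGTG) also held both motifs. None of the 4 windows held the other letters searched on both strands, which were the DR1 element of PPAR receptors, a direct repeat of AGGTCA with 1 base between (in 0.0396% of windows), its single repeat AGGTCA (16.3%), which overlaps it, ACGTG (19.6%), the cAMP response element TGACGTCA (1.79%), its core TGACG (20.8%), which overlaps it, and the AP-1 site TGANTCA (7.81%). A match describes letters in the window and not a binding site.

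Ramp2 (ENSMUSG00000001240, chromosome 11, 101246028 to 101259546, plus strand) was the most abundant of the 5 genes. It stood at 129, 144 and 177 FPKM in untreated F_1, F_2 and M_1 and at 168, 145 and 215 FPKM in bezafibrate F_1, M_1 and M_2. The highest library was bezafibrate M_2, and the groups overlapped. Group means were 150.4 ± 24.5 and 176 ± 35.7 FPKM (SD, n = 3 each), and the log2 difference was 0.22 (SE 0.195). It moved to 0.07 without bezafibrate M_2, to 0.12 without untreated F_1 and to 0.35 without either untreated M_1 or bezafibrate M_1. Of the exon bases of Ramp2, 33.4% are shared with the same-strand gene Vps25, a trafficking gene which the table lists at 0.00 to 0.59 FPKM, so the split of reads between them is uncertain. The mean of Ramp2 ranked at the 98.0th percentile of the genes tested.

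The partners stood in different proportions from library to library. Ramp2 exceeded Ramp3 in every library, by 6.73-fold, 8.27-fold and 2.16-fold in untreated F_1, F_2 and M_1 and by 4.78-fold, 18.6-fold and 19.1-fold in bezafibrate F_1, M_1 and M_2. Ramp3 made up 12.9%, 10.8% and 31.7% of the summed FPKM of both partners in the untreated libraries and 17.3%, 5.09% and 4.98% in the bezafibrate libraries. The chow groups overlapped in this share. The share was lowest in both bezafibrate male libraries. Ramp1, the partner for calcitonin gene-related peptide, was low, at 3.03, 0.98 and 1.68 FPKM in untreated F_1, F_2 and M_1 and at 0.99, 0.75 and 0.46 FPKM in bezafibrate F_1, M_1 and M_2, and did not meet the condition for the fits.

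**Figure D2:**
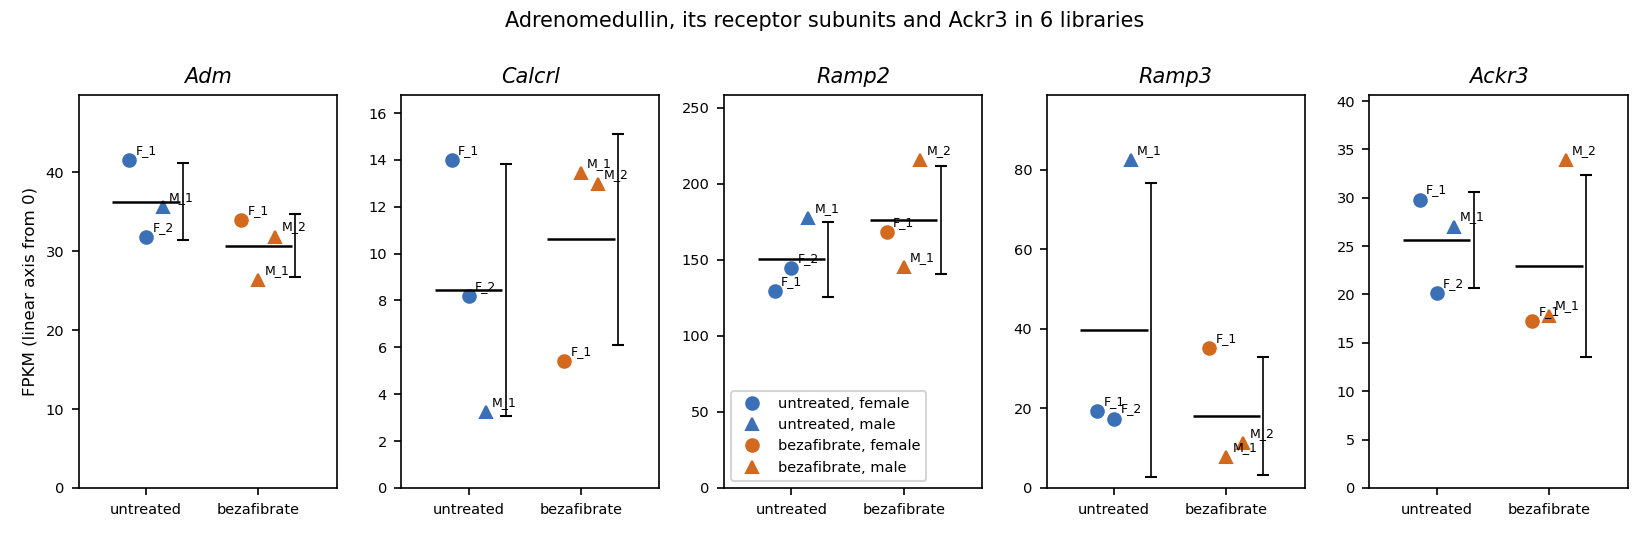
FPKM of Adm, Calcrl, Ramp2, Ramp3 and Ackr3, each on its own linear axis from 0, in 3 untreated and 3 bezafibrate libraries; points are libraries (circle female, triangle male), horizontal lines group means and bars the SD. The groups overlap for each gene, and the untreated male library is the highest of 6 for Ramp3 (82.3) and the lowest for Calcrl (3.22).

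Adm (ENSMUSG00000030790, chromosome 7, 110627661 to 110629820, plus strand), which encodes the ligand, was the steadiest of the 5. It stood at 41.5, 31.8 and 35.6 FPKM in untreated F_1, F_2 and M_1 and at 34.0, 26.3 and 31.8 FPKM in bezafibrate F_1, M_1 and M_2. The highest library was untreated and the lowest bezafibrate, and the groups overlapped. Means were 36.3 ± 4.89 and 30.7 ± 3.94 FPKM (SD, n = 3 each), and the log2 difference was -0.23 (SE 0.160). It was -0.13 without either untreated F_1 or bezafibrate M_1.

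Ackr3 (ENSMUSG00000044337, chromosome 1, 90203980 to 90216751, plus strand), the scavenger, stood at 29.8, 20.2 and 27.0 FPKM in untreated F_1, F_2 and M_1 and at 17.2, 17.8 and 33.9 FPKM in bezafibrate F_1, M_1 and M_2. Both the lowest and the highest library were bezafibrate libraries. Means were 25.7 ± 4.95 and 23.0 ± 9.44 FPKM (SD, n = 3 each). The log2 difference was -0.20 (SE 0.276), at -0.51 without bezafibrate M_2, -0.36 without untreated F_2, -0.09 without untreated F_1, -0.06 without bezafibrate M_1 and -0.04 without bezafibrate F_1.

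In the plot of values by library none of the 5 genes separated the chow groups. The groups did not overlap in 0 of the 5 and in 8.42% of the 11277 genes tested, and limma called 1 gene among all of them, or 0.00887%, at an adjusted p under 0.05. That gene was not one of the 5. These shares are given as the background only, since the genes were chosen with this difference known.

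Ordered by mean FPKM over 6 libraries, Ramp2 (163 ± 30.8) led, followed by Adm (33.5 ± 5.01), Ramp3 (28.9 ± 27.8), Ackr3 (24.3 ± 6.90) and Calcrl (9.53 ± 4.59) (SD, n = 6). Ramp2 lay above Adm and Ackr3 above Calcrl in 6 of 6 libraries. Adm lay above Ramp3 in 4 and Ramp3 above Ackr3 in only 2, so these neighbours did not differ beyond their spread. Lengths in the table count all annotated exon bases of a gene, 1380 for Ramp3 and 3301 for Ramp2, and another choice of transcript would shift these levels. Among 45 G protein-coupled and related receptors listed for endothelium, Ackr3 ranked 10 and Calcrl 17 by mean FPKM, below S1pr1, the receptor for sphingosine 1-phosphate, at 592 FPKM.

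The spread across libraries set the genes apart from each other. The SD of log2(FPKM + 1) over 6 libraries was 1.16 for Ramp3, which ranked 86 of 11277, and 0.75 for Calcrl, which ranked 336. It was 0.39 for Ackr3, 0.26 for Ramp2 and 0.21 for Adm, and the median gene had 0.23.

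Sex was tested with chow as a covariate. Means in female and male libraries were 23.9 ± 9.74 and 33.8 ± 42.0 FPKM for Ramp3, 9.19 ± 4.37 and 9.88 ± 5.77 for Calcrl and 147 ± 19.5 and 179 ± 35.0 for Ramp2 (SD, n = 3 each). Adm had 35.8 ± 5.09 and 31.3 ± 4.65, and Ackr3 22.4 ± 6.58 and 26.2 ± 8.06. The log2 differences, male minus female, were 0.16 (SE 0.788), -0.16 (SE 0.560), 0.22 (SE 0.211), -0.13 (SE 0.181) and 0.31 (SE 0.294) in that order. None was called (limma adjusted p = 1.00 for each), and the sexes overlapped in each gene. Limma called 3 of 11277 genes, or 0.0266%, by sex, namely Ddx3y, Eif2s3y and Xist. A missed threshold does not show equal levels.

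The sex difference of Ramp3 ran from -1.80 without untreated M_1 to 2.11 without bezafibrate F_1, and that of Calcrl from 1.15 to -1.47 without the same libraries. Without untreated M_1 the sex term rests on the bezafibrate libraries alone, and without bezafibrate F_1 on the untreated libraries alone. For both genes the difference over all libraries thus averages opposite directions. The lowest limma adjusted p among the alternatives was 0.0984 for Ramp3 and 0.172 for Calcrl.

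Among the remaining peptide family, the libraries held little. Calcr, the calcitonin receptor, and the peptide genes Adm2, Calcb and Iapp were listed at 0 in all 6 libraries, and Calca, which encodes calcitonin gene-related peptide, had 6 reads in untreated F_2 and 0 elsewhere. Crcp, which in other cells couples the receptor to signalling, stood at 10.95, 13.0 and 11.1 FPKM in untreated F_1, F_2 and M_1 and at 10.1, 9.999 and 7.59 in bezafibrate F_1, M_1 and M_2. All 3 bezafibrate libraries lay below all untreated ones, with a log2 difference of -0.32 (SE 0.156) that limma did not call. Gpr182, an atypical chemokine receptor once proposed to bind adrenomedullin, had 0.878 ± 0.387 and 1.28 ± 0.212 FPKM (SD, n = 3 each).

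The pathway around the receptor was read from lists of 86 other genes, of which 83 were in the table and 70 entered the fits. None of the 70 was called between chows by limma or by limma-voom, and 4 had an unadjusted p under 0.05, against 472 of all 11277 genes. In the main scaling 51 lay below and 19 above 0, with a median log2 difference of -0.08 against -0.01 for all genes. That split was 28 below and 42 above after rescaling to TPM and 35 and 35 under quantile normalisation, so its direction changed with the scaling. TPM scaling itself moved the median of all genes to 0.10. The groups did not overlap, higher with bezafibrate, in 1 of the 70 (4.29% of all genes) and, lower, in 4 (4.13% of all genes). By sex, limma called 0 of the 70.

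Of 8 measured genes for processing and clearance, 0 were called, and their median difference was -0.07. Dpp4, a surface protease that trims Cxcl12, stood at 7.37, 7.94 and 8.55 FPKM in untreated F_1, F_2 and M_1 and at 4.64, 5.60 and 5.78 FPKM in bezafibrate F_1, M_1 and M_2. The groups did not overlap, and the log2 difference was -0.50 (SE 0.140). Pam, which amidates the carboxyl end of adrenomedullin, had 16.4 ± 0.720 and 16.1 ± 1.501 FPKM. Ece1, an endothelial metalloprotease, had 115 ± 11.4 and 108 ± 11.9 FPKM and was the highest of this list, and the insulin-degrading enzyme Ide had the largest positive difference, 0.17.

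Downstream of the receptor, 34 G protein and cAMP genes were measured and 0 called, at a median of -0.17, with 26 below and 8 above 0 (18 and 16 after rescaling to TPM, at a median of -0.05). Gnas, the stimulatory G protein, had 19.8 ± 1.61 FPKM untreated and 17.4 ± 2.71 FPKM with bezafibrate, and Adcy4, an adenylyl cyclase, 90.9 ± 14.7 and 79.7 ± 23.9 (SD, n = 3 each). The inhibitory G protein gene Gnai2 was the highest of the list, at 421 ± 93.3 and 379 ± 88.4. Gna11 had the largest positive difference, 0.16.

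Akap12, a scaffold for the cAMP-dependent kinase, had the largest negative difference of this list. It stood at 389, 445 and 536 FPKM in untreated F_1, F_2 and M_1 and at 440.5, 112 and 113 FPKM in bezafibrate F_1, M_1 and M_2. As for Ramp3, untreated M_1 was the highest library, bezafibrate F_1 lay within the untreated range, and both bezafibrate male libraries were lowest. The log2 difference was -1.35 (SE 0.501). Limma did not call it with all libraries and called it without bezafibrate F_1, the 1 pathway call among the alternatives.

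Trafficking genes numbered 12 measured and 0 called (median -0.05). Slc9a3r2, a PDZ adaptor of receptors at the membrane, had 532 ± 109 and 643 ± 87.1 FPKM, the arrestin Arrb2 2.48 ± 0.947 and 3.21 ± 0.728, and the early endosome GTPase gene Rab5a a difference of -0.17. On the Ackr3 side, Cxcl12, a chemokine that Ackr3 scavenges, stood at 351, 360 and 398 FPKM in untreated F_1, F_2 and M_1 and at 407, 354 and 278 in bezafibrate F_1, M_1 and M_2, with overlapping groups. Its signalling receptor Cxcr4 was low, at 1.55 ± 0.591 and 1.62 ± 0.632 FPKM. None of the 5 measured genes of that axis was called.

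Vascular effectors numbered 11 measured and 0 called (median -0.04). Nos3, endothelial nitric oxide synthase, stood at 116, 143.5 and 245 FPKM in untreated F_1, F_2 and M_1 and at 213, 135 and 118 FPKM in bezafibrate F_1, M_1 and M_2. The highest values were in untreated M_1 and bezafibrate F_1, as for Ramp3. Of its exon bases 25.2% are shared with the antisense gene Gm15587, and whether the authors counted by strand was not stated in the sources used here. Vasp, an actin regulator phosphorylated by cyclic nucleotide kinases, had the largest negative difference, -0.39 (SE 0.457), and the guanylate cyclase subunit Gucy1b1 the largest positive, 0.13.

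**Figure D3:**
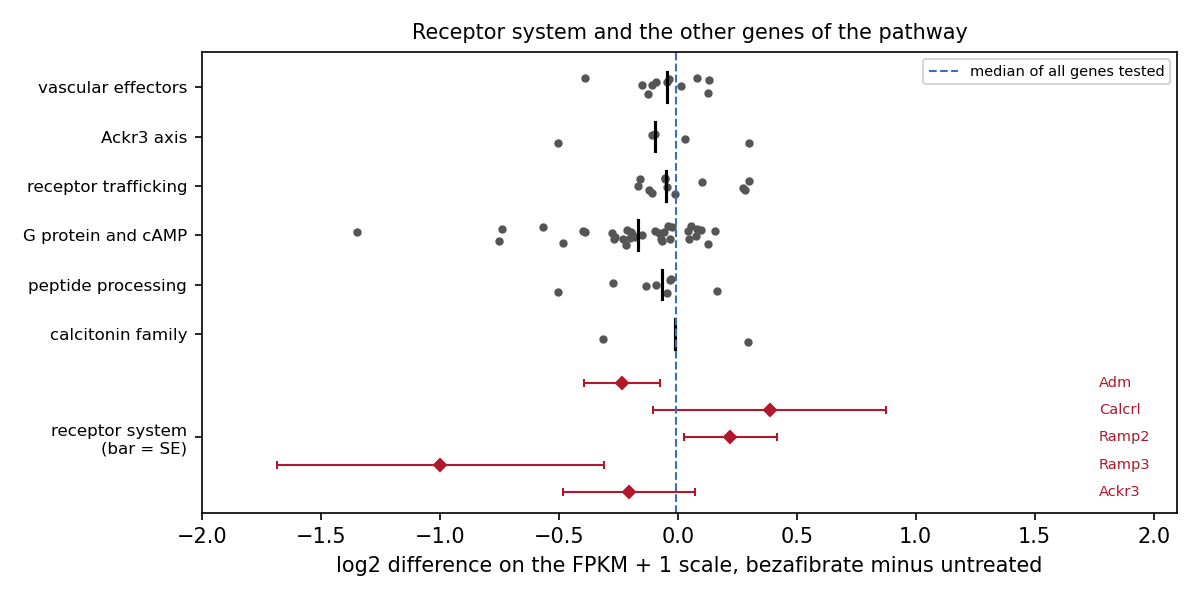
log2 difference (FPKM + 1 scale, bezafibrate minus untreated) of the 5 receptor system genes, with the SE as bars, and of the other measured pathway genes by list, 1 dot per gene with the list's median as a vertical line; the dashed line is the median of all 11277 genes (-0.01). Ramp3 lies lowest of the 5 at -0.997 with the widest bar, and the dot farthest to the left is Akap12 at -1.35; dots would shift to the right by about the median shift of 0.10 after rescaling to TPM.

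As the plot of pathway differences shows, the list medians lay between -0.17 and -0.01, and after rescaling to TPM between -0.05 and 0.17.

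Among 28 other endothelial receptors measured, from the list of G protein-coupled and related receptors, limma called 0 between chows. S1pr1 had 657 ± 108 FPKM untreated and 527 ± 109 with bezafibrate (SD, n = 3 each). Ackr1, an atypical chemokine receptor like Ackr3, had 1.65 ± 0.295 and 3.77 ± 1.03 FPKM, with groups that did not overlap, and shares 25.7% of its exon bases with Cadm3. P2ry2, a nucleotide receptor, had the largest negative difference, -0.59 (SE 0.273).

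Genes whose pattern over the 6 libraries was most like that of Ramp3, by Pearson's r on log2(FPKM + 1), were Golph3 (0.998), a Golgi lipid-binding protein, Cx3cl1 (0.997), the membrane-bound chemokine fractalkine, Pdcd6 (0.996), a calcium-binding adaptor, Tm4sf1 (0.995), an endothelial tetraspan surface protein, and Dynlt3 (0.993), a dynein light chain. Cx3cl1 stood at 61.5, 56.3 and 103 FPKM in untreated F_1, F_2 and M_1 and at 76.1, 42.3 and 51.1 in bezafibrate F_1, M_1 and M_2. It was highest in untreated M_1 and lowest in bezafibrate M_1, with a narrower range than Ramp3. Such values were not rare for Ramp3: 490 of 11276 genes, or 4.35%, had r of at least 0.9 with it. For Adm, Ramp2 and Ackr3, over the same 6 libraries, that share was 0.488%, 0.745% and 0.842%. Ramp3 also followed the first principal component (r = 0.92), and the part of that component in these values was not tested.

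For Calcrl the closest were Cnnm2 (0.997), Tle1 (0.995), a co-repressor, and Ndrg3 (0.993). Genes at r of at least 0.9 numbered 467 (4.14%), and those at -0.9 or below 727 (6.45%). The closest to Adm were Ctsz (0.984), a lysosomal protease, Arrdc3 (0.975), an alpha-arrestin, and Cdc73 (0.975). Ramp2 had Thap4 (0.991), Alkbh3 (0.988) and the processed pseudogene Gm13835 (0.987), and Ackr3 had Gsta4 (0.997), Mcur1 (0.995) and Gnptg (0.988). At r of at least 0.9 there were 55 genes for Adm, 84 for Ramp2 and 95 for Ackr3, fewer than for Ramp3 and Calcrl.

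Markers of other cells the sort could hold are given beside Ramp3. Of 10 oligodendrocyte markers 10 were measured and none was listed at 0. Between chows 10 lay below 0, also under TPM and quantile scaling, and 0 were called. That count was 8 of 10 with array weights, 7 of 9 without untreated F_1, and 8 of 9 without untreated M_1 or bezafibrate M_1. In the remaining settings all measured oligodendrocyte markers lay below 0. Their summed FPKM ran from 499 to 1040 in untreated and from 424 to 903 in bezafibrate libraries, highest in untreated M_1 and bezafibrate F_1, and most of it was Mal, at 902 and 806 FPKM there. Mbp, which encodes myelin basic protein, stood at 11.5 and 9.35 in the same libraries, and its highest value, 14.9, was in untreated F_1. Of 13 choroid plexus and ependymal markers 11 were measured and none was listed at 0, with 10 above 0 between chows, also under TPM and quantile scaling. Across the other settings with the same 11 genes that count ran from 6 (replicate block) to 11 (array weights). It was 7 without bezafibrate M_2 and 8 with sex as a covariate. Only 2 of these genes met an FPKM of at least 5 in 3 libraries. The summed FPKM ran from 414 to 474 in untreated and from 466 to 1041 in bezafibrate libraries, highest in bezafibrate M_2 and M_1, where Ramp3 was lowest. The sum of 9 neuronal markers, of which 2 were measured, was low. It was also highest in untreated M_1 and bezafibrate F_1, at 19.8 and 17.8 FPKM against 13.9 to 16.4 elsewhere. Stmn2 is on this list and also on the arterial list. It was the only neuronal marker with an FPKM of at least 5 in 3 libraries. The astrocyte sum was highest in untreated M_1, at 94.4 FPKM, but not raised in bezafibrate F_1, at 66.3. The part of these markers in the Ramp3 values was not tested.

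Pericyte markers (10 measured of 10) summed to 198 to 355 FPKM in untreated and 196 to 273 in bezafibrate libraries, smooth muscle markers (7 of 8) to 124 to 162 and 139 to 178, and astrocyte markers (10 of 10) to 62.6 to 94.4 and 64.2 to 67.2. Fibroblast and meningeal markers (2 of 10) summed to 82.7 to 112 and 88.4 to 105 FPKM, of which Foxc1 and Ptgds made up most, microglial markers (6 of 10) to 28.4 to 35.4 and 21.0 to 31.1, neuronal markers (2 of 9) to 13.9 to 19.8 and 14.4 to 17.8, and erythrocyte markers (4 of 6) to 45.5 to 298 and 51.4 to 149. Of 6 lymphatic markers only Flt4, which is also on blood endothelium, was measured, and Ccl21a was listed at 0 in every library. None of the markers in these lists was called between chows.

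Vessel zones and settings in which Adm is known to respond were also read. Of 12 capillary, 15 arterial and 12 venous genes measured, 0 were called, with medians of -0.14, -0.10 and 0.13 (-0.02, 0.01 and 0.25 after rescaling to TPM). Hypoxia genes, a class that includes Adm as a target of the hypoxia-inducible factors, had a median of -0.02 over 17 measured (0.10 under TPM). Tip cell genes, which mark sprouting endothelium, had -0.15 over 16 (-0.04 under TPM). Limma called 0 genes of either list. Both sums were highest in untreated M_1 and bezafibrate F_1, at 6780 and 6233 FPKM for hypoxia genes, of which Slc2a1 was 5752 and 5337, and at 1228 and 1146 FPKM for tip cell genes. Of 27 immediate early genes measured, 26 lay below 0 (21 under TPM, 20 under quantile scaling) and 10 had groups that did not overlap, lower with bezafibrate, against 4.13% of all genes, and 0 were called.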

How the data were processed

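RNA-seq was made from sorted brain endothelial cells in 6 libraries, 3 untreated and 3 bezafibrate, each from 3 pooled brains. Per the labels' protocols, duplicate reads were removed and the rest assigned to transcripts by Salmon. The build is GRCm38 per the submitters' processing notes. The deposited values are FPKM made by the authors. For their scaling, the Salmon version, annotation and strand setting, no detail was stated in the sources used here. The column of the untreated male library is numbered M_2 in the table, whereas the sample's title says M_1. It was assigned through the sample's description, which names that column, and is called M_1 here. FPKM times length fell on whole multiples of a step for 100% of values (tolerance 0.01 reads), which gave the recovered reads. Recovered reads ran from 16858130 to 20228619 per library. The library size behind the FPKM, from the same step, was not the sum of recovered reads. Recovered reads over that size came to 0.950, 1.03 and 1.09 in untreated F_1, F_2 and M_1. In bezafibrate F_1, M_1 and M_2 the ratio was 1.06, 0.888 and 0.897. It was thus highest in the libraries with the highest Ramp3. The log2 chow difference of Ramp3 was -0.92 after rescaling to TPM and -0.95 by limma-voom on recovered reads.

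Genes reaching an FPKM of 1 in 3 or more libraries were fitted on log2(FPKM + 1), with a pseudocount of 1, by limma 3.58.1 in R 4.3.3 (eBayes with a trend, two-sided). Adjustment of p followed Benjamini and Hochberg over 11277 genes, and a gene was called under 0.05. Chow had no covariate, sex had chow as a covariate, and their interaction was fitted with 2 residual degrees of freedom. The residuals of the interaction come only from untreated females and bezafibrate males. Its SE thus does not measure the spread of the single untreated male and single bezafibrate female library. The chow fit was tested on simulated data, and the interaction fit was not. The simulated noise was independent and of the same size for every gene. It thus does not cover genes as variable as Ramp3 or a component shared by genes. Pools of separate animals are the replicates. Exon overlaps are from GENCODE M21 (GRCm38). The members, gene lists and tests were chosen with earlier results of these data known. Named from each pathway list were the highest gene, the largest difference in each direction and any call, together with genes whose role bears on the receptor; from the marker and setting lists only genes beside a result are named. Genes named for their role beyond that rule were chosen after their values were seen. Alternatives were other pseudocounts, filters, scalings, weights and covariates, libraries left out and limma-voom on recovered reads.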

Additional observations from a re-analysis of the deposited data

Results flagged for a closer look

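Ramp3 was singled out because its chow effect differed between the sexes by a limma fit with chow, sex and their product, in which the product was -3.90 (SE 0.343). Females had 19.2 and 17.4 FPKM untreated and 35.1 with bezafibrate, and males 82.3 untreated and 7.80 and 11.3 with bezafibrate. These values were known when Ramp3 was chosen, and 2 of the 4 arms hold 1 library each and add no spread to the SE. The product is therefore a description and no p is given. In 10 alternatives, all chosen after the data were seen, it ran from -4.15 to -3.60. The fit could not be made without untreated M_1 or without bezafibrate F_1.

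Akap12, the scaffold of the cAMP-dependent kinase, was singled out by the same fit at -2.33 (SE 0.283), and this too is a description. Females had 389 and 445 FPKM untreated and 440.5 with bezafibrate, and males 536 untreated and 112 and 113 with bezafibrate. In the same alternatives the value ran from -2.43 to -1.88. For both genes the single untreated male and the single bezafibrate female library are those that stood apart on the first principal component, which cannot be told apart from a joint effect of chow and sex.

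The number of genes that this fit calls depended on the setting. Of 11277 genes it called 75 (0.665%), and 222 after rescaling to TPM, 1 under quantile normalisation, 67 at a pseudocount of 0.1 and 1084 by limma-voom. With other filters it called 478 (no filter) and 571 (FPKM of at least 5). Without untreated F_1 it called 90, without untreated F_2 548, and without bezafibrate M_1 or M_2 0 in each case. Passes of Ramp3 and Akap12 are not counted here, since both were singled out by this fit. All 10 alternatives keep the single untreated male and the single bezafibrate female library.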

How the results depend on the processing

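The count of genes called between chows, 1 with all libraries, was 0 without both untreated M_1 and bezafibrate F_1, 0 with the replicate block and 0 by limma-voom, and 0 to 3 with a library left out. By sex the count was 3, and 1 to 4 with a library left out. Pathway genes called between chows numbered 0, and 0 to 1 with a library left out, Akap12 being called without bezafibrate F_1. The male minus female difference of Ramp3 was -0.19 with no treatment term and -1.80 to 2.11 with a library left out. That of Calcrl was 0.0408 by limma-voom and -1.47 to 1.15 with a library left out. The ends of both ranges come from fits in which the sex term rests on a single chow group. Differences of Adm, Ramp2 and Ackr3 by sex kept their direction in 14 of 14 alternatives each. Without both untreated M_1 and bezafibrate F_1 sex and chow coincide, and no sex fit could be made. Chow differences and calls from that setting cannot be told apart from sex.

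The chow differences of the 5 genes were known when they were chosen, and the alternatives share most of their libraries. Between chows, Adm, Ramp2 and Ramp3 kept their direction in 16 of 16 alternatives. Calcrl did in 15 of 16 and turned without untreated M_1 (-0.11). Ackr3 did in 15 of 16 and lay at 0.00 without both libraries that stood apart, where chow and sex coincide. With the replicate block Ackr3 was -0.67, Ramp3 -1.20, Ramp2 0.04, Adm -0.35 and Calcrl 0.28. The titles give F_1 and M_1 in both groups. Over all genes tested, r between the deviations of libraries of the same number was -0.36 and -0.30. Each of these pairs holds a library that stood apart, so these values cannot decide whether the number pairs libraries. The main fits left them unpaired. The block rests on the titles, and the untreated male is numbered M_2 in the table's own column. With 3 libraries a group and depths of 229 to 2109 reads for Ramp3, the spread between libraries limits these values more than the count of reads.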
